A study of Drosophila melanogaster with 8 samples.

Results

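The 73 mitochondrial ribosomal protein genes of Drosophila melanogaster described here encode proteins of the ribosome inside mitochondria. They were chosen by name from a table of 19299 features, as every gene whose symbol begins with mRpL or mRpS followed by a digit. By this naming 47 belonged to the large subunit (mRpL) and 26 to the small subunit (mRpS). The RNA came from midguts of old female flies in 8 samples, 4 from flies fed quercetin (Que), a plant flavonol with antioxidant activity, and 4 from flies fed its solvent, dimethyl sulfoxide (DMSO). Que flies were wild type (WT in the labels), 40 to 50 days old, and received 10 µM quercetin dissolved in DMSO in the food. DMSO flies were of the same sex, genotype label and age and received the solvent alone. Each sample pooled 200 midguts, so a value is an average over flies and over all cells of the midgut, and fewer cells of a type cannot be told apart from less RNA per cell. The labels do not say whether the replicates came from separate cultures of flies, and p-values measure only the spread between these samples.

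Mitochondria translate a handful of core subunits of the respiratory chain and of ATP synthase from their own small genome, and they use a ribosome of bacterial ancestry to do so. The ribosomal RNAs are transcribed inside the organelle, while the ribosomal proteins are encoded in the nucleus, made in the cytosol and imported. The large subunit joins amino acids in the peptidyl transferase centre and releases the chain through an exit tunnel, and the small subunit binds the messenger RNA and decodes it. Many mitochondrial ribosomal proteins have a bacterial counterpart and others are found only in mitochondria. Enterocytes, the absorptive cells that make up most of the midgut, and visceral muscle are both rich in mitochondria.

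Levels are given in RPKM, reads per kilobase of gene scaled to the reads assigned to genes in the sample, as the authors deposited them. The samples held between 27253832 and 35619139 assigned reads, and a member had between 32 and 4411 reads in a sample. Genes were compared as log2(RPKM + 0.1) with limma, across the 13249 features with a mean of at least 0.1 RPKM, and all 73 members passed that minimum. Fold changes are on this log2 scale throughout, Que minus DMSO, and the small constant slightly understates the change of the lowest members. Defining enterocyte markers were high, with a summed level of 1892 to 2309 RPKM over 5 genes in Que samples and 1438 to 2016 RPKM in DMSO samples. Most of this sum was betaTry, a trypsin of enterocytes, at a mean of 1749.6 RPKM in Que samples and 1369 RPKM in DMSO samples, and the median fold change of the 5 genes was 0.01, with nub at -0.19 and Myo31DF at -0.09. Of the other cell types a midgut sample can hold, the 9 visceral muscle genes summed to 890 to 1412 RPKM in Que samples and 868 to 1218 RPKM in DMSO samples. Their median fold change was 0.16, and 7 of 9 were higher with Que. The 5 progenitor genes summed to 30.8 to 51.4 RPKM in Que samples and 42.5 to 47.7 RPKM in DMSO samples, with a median fold change of -0.19 and 1 of 5 higher with Que. The 8 enteroendocrine genes summed to 1117 to 1576 RPKM in Que samples and 1090 to 1380 RPKM in DMSO samples, with a median fold change of 0.06 and 6 of 8 higher with Que. Fat body genes summed to 38.4 to 79.3 RPKM in Que samples and 41.6 to 60.7 RPKM in DMSO samples, and Malpighian tubule genes to 12.5 to 22.8 RPKM and 15.7 to 24.1 RPKM in the same order. The 6 ovary genes were near 0, at a summed 1.15 to 1.91 RPKM in Que samples and 1.66 to 4.86 RPKM in DMSO samples, and osk was at 0 in all 4 Que samples. Of the marker genes tested only betaTry had an unadjusted limma p under 0.05 (0.0424, higher with Que), and nos, Cp36 and CapaR were below the minimum and not tested. The part of cell type shares in the results was not tested.

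The members lay on all the large chromosome arms, with 12 genes on 2L, 12 on 2R, 17 on 3L, 21 on 3R and 11 on X. The closest neighbours were mRpL3 and mRpS30 on X, 23383 bases apart, followed by mRpL24 and mRpL28 on 2L, 28614 bases apart. All 73 had the same start and end as the RefSeq genes on assembly Release 6 plus ISO1 MT, from which the coordinates given here are taken. They were short genes, with a median exon length of 783 bases against 1667 bases over all features tested, and 70 of the 73 were shorter than that.

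Of the 73 members, 43 shared exon bases with another feature, 40 of these only with a feature on the opposite strand. The overlap exceeded 20% of the exon length in 8 members, and the levels of these 8 are uncertain because the strand setting of the counting is not given in the sources used here. The library kit was a stranded one. mRpL53 lay wholly within CG33155 on the same strand, so its 829 bases could not be told apart from that gene. mRpL13 shared 236 bases with CG10602 on the same strand, a gene with 36.9 RPKM against 3.17 RPKM for mRpL13 itself. The others were mRpS24 (332 bases with TBC1d7), mRpS9 (325 bases with ArgRS-m), mRpL17 (258 bases with CG34263), mRpS14 (255 bases with Naa15-16), mRpS21 (228 bases with CG8870) and mRpL48 (164 bases with frtz), each with a gene on the opposite strand. mRpS14 also shared 30 bases with CG32533 on the same strand.

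All members were transcribed in the old midgut, over a 38.4-fold range of mean level. The median member had 15.9 RPKM, against 4.59 RPKM over all features tested, and 71 of the 73 were above that. The subunits had like medians of 16.3 RPKM for the large and 15.8 RPKM for the small. The spread lay within each subunit: mean levels ran between 3.17 RPKM (mRpL13) and 121.7 RPKM (mRpL30) in the large subunit and between 5.02 RPKM (mRpS2) and 94.5 RPKM (mRpS26) in the small.

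**Figure D1:**
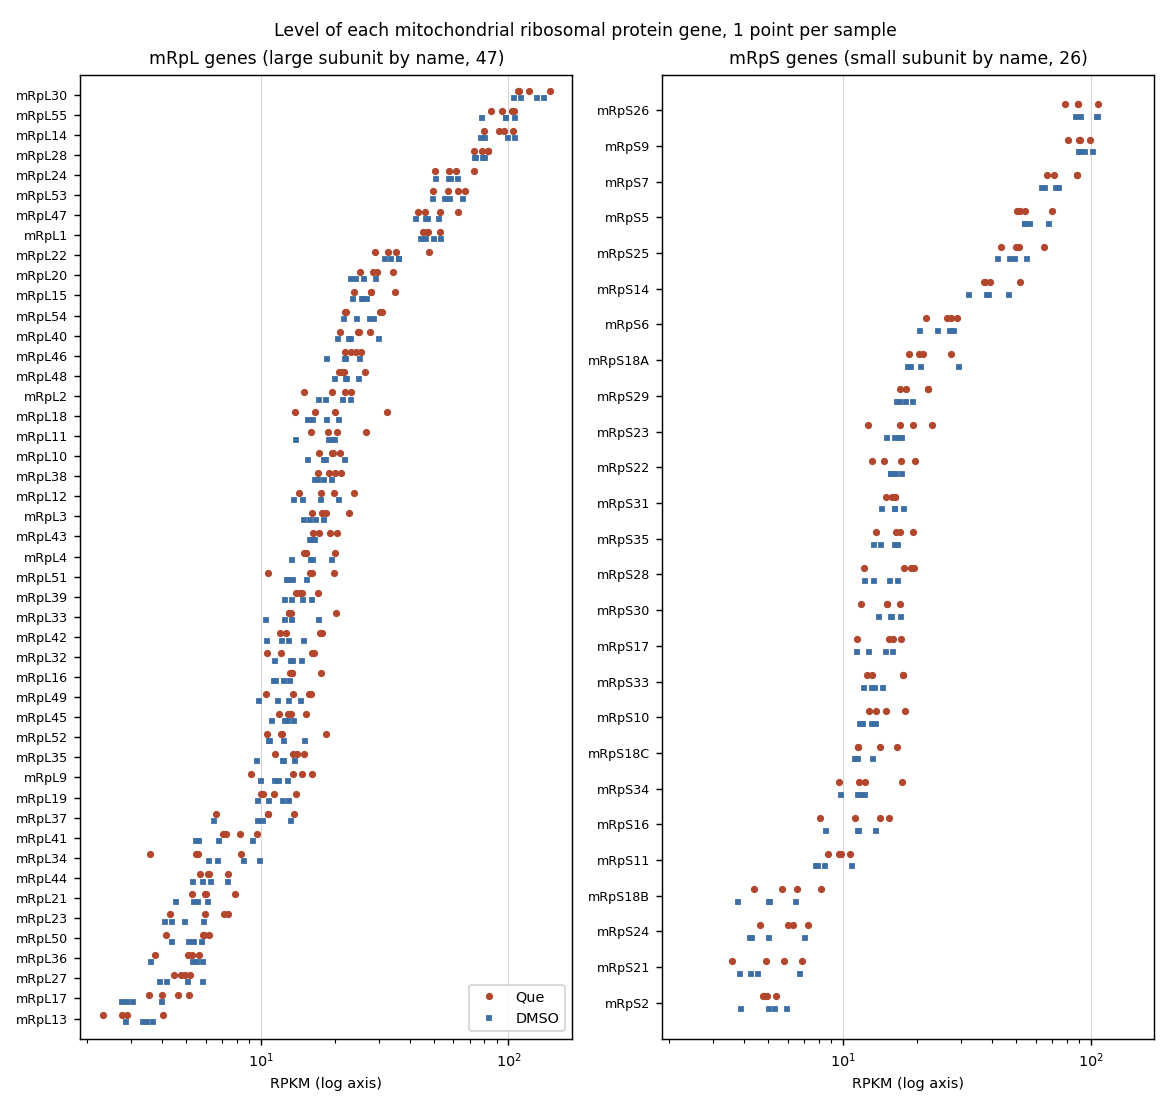
Level of each of the 73 genes in RPKM on a log axis, with 1 point per sample, Que as circles above DMSO as squares in each row, the 47 mRpL genes on the left and the 26 mRpS genes on the right, each ordered by mean level. In every row the Que and DMSO points overlap, and differences between genes, from 3.17 RPKM (mRpL13) to 121.7 RPKM (mRpL30), are far larger than those between groups.

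The top of the order held proteins of both subunits. mRpL30, whose bacterial counterpart L30 is a small protein of the large subunit, had 147, 109, 121 and 110 RPKM in the Que samples, against 139, 105, 130 and 112 RPKM in the DMSO samples. mRpL55, a large subunit protein without a bacterial counterpart, had 94.6, 84.9, 105 and 104 RPKM in the Que samples, against 98.1, 78.2, 106 and 98.0 RPKM in the DMSO samples. mRpL14, whose bacterial counterpart lies at the face where the subunits meet, had 95.9, 80.0, 104 and 91.9 RPKM in the Que samples, against 99.2, 77.5, 106 and 80.6 RPKM in the DMSO samples. For these 3 genes the Que and DMSO samples covered nearly the same range, and the fold changes were 0.00 (SE 0.13), 0.03 (SE 0.12) and 0.04 (SE 0.13).

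In the small subunit the highest were mRpS26, mRpS9 and mRpS7. mRpS26, found only in mitochondria, had 107, 79.2, 88.7 and 89.3 RPKM in the Que samples, against 106, 87.4, 107 and 91.3 RPKM in the DMSO samples. mRpS9, whose bacterial counterpart reaches towards the transfer RNA in the peptidyl site, had 81.4, 90.7, 99.2 and 89.9 RPKM in the Que samples, against 90.3, 94.7, 102 and 89.4 RPKM in the DMSO samples. mRpS7, a protein of the head of the small subunit, had 87.9, 66.5, 88.4 and 71.3 RPKM in the Que samples, against 72.7, 63.4, 74.7 and 65.7 RPKM in the DMSO samples. Que 1 and Que 3 were above every DMSO sample for mRpS7, and the other Que samples were not. The differences of these neighbours in level (mRpL55, mRpS26, mRpS9 and mRpL14, at 96.0, 94.5, 92.2 and 91.9 RPKM over 8 samples) were smaller than the spread between samples of a group.

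There was no break between high and low members. A level of 40 RPKM, chosen after the values were seen, was reached by 14 genes, of which 8 were of the large and 6 of the small subunit. The lowest of these was mRpS14 with 40.2 RPKM, and the highest of the other 59 was mRpL22 with 35.3 RPKM. By level over all features tested, 7 members were among the top 10%.

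At the low end of the large subunit, mRpL13 had 4.03, 2.77, 2.90 and 2.31 RPKM in the Que samples, against 3.67, 3.47, 3.35 and 2.87 RPKM in the DMSO samples. In the small subunit, mRpS2 had 4.96, 4.84, 4.77 and 5.41 RPKM in the Que samples, against 5.33, 3.89, 5.06 and 5.95 RPKM in the DMSO samples. mRpS21 had 6.83, 4.89, 5.79 and 3.596 RPKM in the Que samples, against 6.74, 3.84, 4.29 and 4.57 RPKM in the DMSO samples. The groups overlapped in each of these genes, which are counterparts of the bacterial proteins L13, S2 and S21.

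No member differed between Que and DMSO after adjustment over all features. The smallest adjusted p of a member was 0.946 (limma, Benjamini-Hochberg), and none of the 13249 features tested passed an adjusted p of 0.05 either (0%). At an unadjusted limma p of 0.05 a single member was higher with Que, mRpL17, and 0 were lower. The share over all features tested was 1.68% higher and 1.93% lower, or 3.62% in both directions, so 1 of 73 is near that background. In 0 of 73 members did the Que and DMSO samples not overlap, against 2.14% of all features tested. The exact permutation test over the 8 samples cannot go below a two-sided p of 0.0286, and the smallest value of a member was 0.0571.

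The estimates were also narrow. The fold change was between -0.2 and 0.2 on the log2 scale for 62 of the 73 members, against 8232 of the 13249 features tested. The extremes among the members were mRpL34 at -0.48 and mRpL17 at 0.44. The 95% interval of the fold change lay within 2-fold in either direction for 72 members (74.4% of all features tested) and within 1.5-fold for 62 (47.6% of all features tested). mRpL34, with the fewest reads, was the exception to the first. The median SD within groups was 0.20 on the log2 scale for the members and 0.27 for all features tested. The members also had a higher median level, 15.9 RPKM against 4.59 RPKM, and the part of level in these comparisons was not tested.

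**Figure D2:**
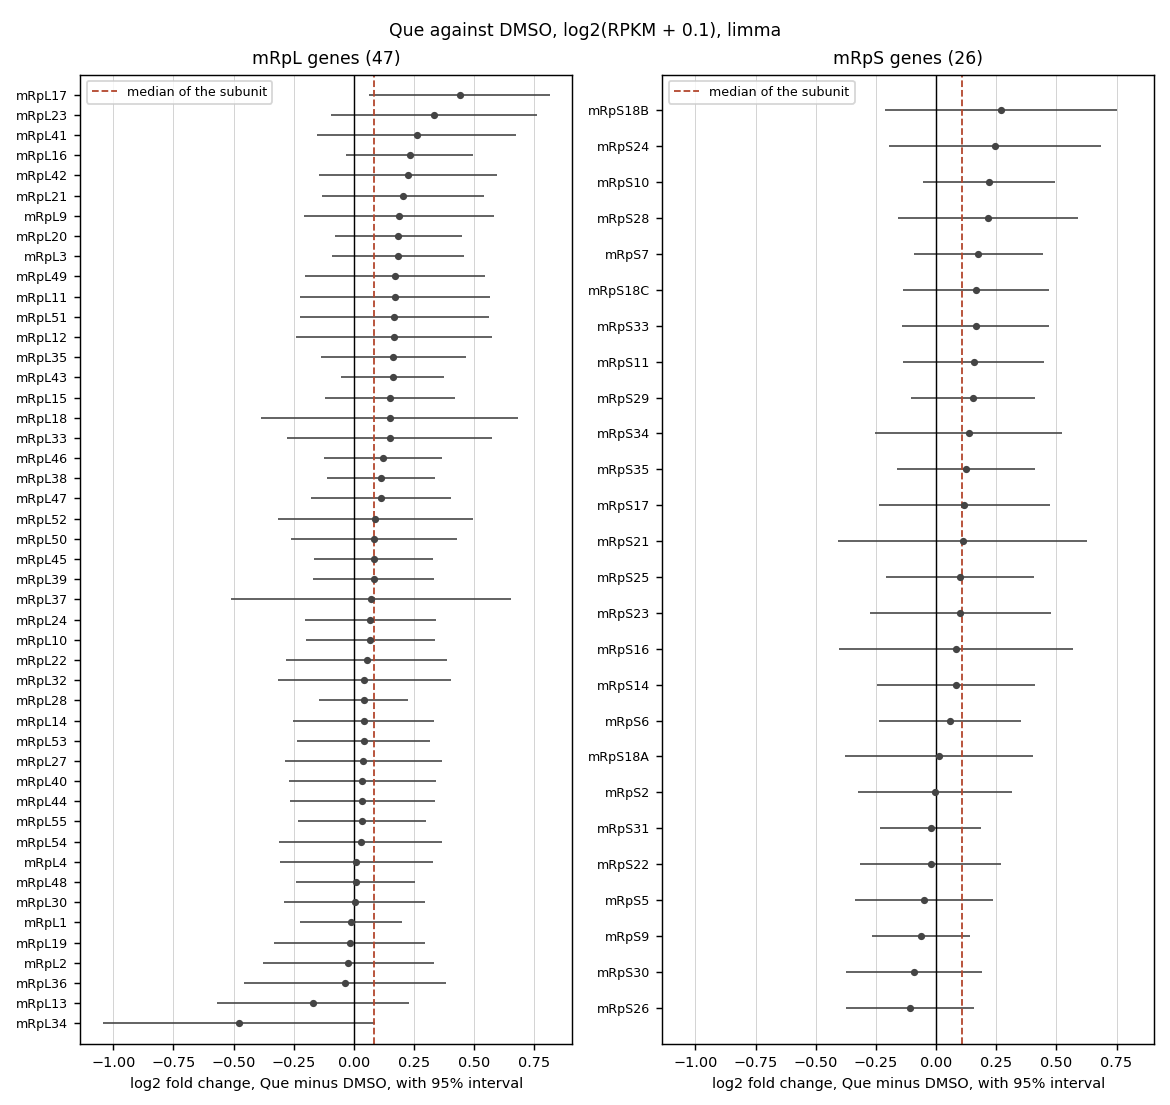
Fold change of each gene between Que and DMSO on the log2(RPKM + 0.1) scale with its 95% interval from limma, 47 mRpL genes on the left and 26 mRpS genes on the right, each ordered by fold change; the dashed line is the median of the subunit. The interval includes 0 for every gene but mRpL17, and the medians are 0.08 and 0.11.

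mRpL17, whose bacterial counterpart L17 sits near the mouth of the exit tunnel, had 5.15, 3.56, 3.998 and 4.66 RPKM in the Que samples, against 4.02, 2.75, 3.07 and 2.88 RPKM in the DMSO samples. Que 1 and Que 4 were above every DMSO sample, while Que 2 and Que 3 were below DMSO 1. The level averaged 4.34 ± 0.705 RPKM in Que samples and 3.18 ± 0.574 RPKM in DMSO samples (SD, n = 4 each), on 103 to 177 reads per sample. The fold change was 0.44 (SE 0.17), with a limma unadjusted p of 0.0265, an adjusted p of 0.946 and an exact permutation p of 0.0857. The limma unadjusted p rose above 0.05 without Que 1 (0.0724), Que 4 (0.0683), DMSO 2 (0.0731), DMSO 3 (0.0572) or DMSO 4 (0.0685). mRpL17 lies at 3L:264779-265932 on the plus strand, and 258 of its 1092 exon bases are also the whole of CG34263 on the other strand.

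mRpL34, the shortest member with 327 exon bases, was the gene with the most negative fold change. Its counterpart in bacteria is among the smallest ribosomal proteins. It had 8.36, 5.50, 3.59 and 5.61 RPKM in the Que samples, against 9.98, 6.18, 8.61 and 6.73 RPKM in the DMSO samples. Que 2, Que 3 and Que 4 were below every DMSO sample, and Que 1 was within the DMSO range. The fold change was -0.48 (SE 0.25), with a limma unadjusted p of 0.088 and an exact permutation p of 0.143. Without Que 1 it was -0.68 with a limma unadjusted p of 0.0171, and without Que 3 it was -0.28 with a limma unadjusted p of 0.236.

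Of the other large subunit genes with the smallest p, mRpL16 is the counterpart of bacterial L16, which helps to position the transfer RNA at the peptidyl transferase centre. It had 13.4, 13.1, 17.5 and 13.4 RPKM in the Que samples, against 11.4, 11.6, 12.4 and 13.2 RPKM in the DMSO samples. Que 3 stood apart, and 3 of the 4 Que samples were above every DMSO sample while Que 2 was below DMSO 4. The fold change was 0.23 (SE 0.12), with a limma unadjusted p of 0.0779 and an exact permutation p of 0.0571. Without Que 3 the fold change was 0.14 with a limma unadjusted p of 0.156.

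mRpL23, the counterpart of a protein at the tunnel exit that in bacteria serves as a docking site for a chaperone, had 7.10, 4.32, 7.40 and 5.97 RPKM in the Que samples, against 5.90, 4.94, 4.41 and 4.11 RPKM in the DMSO samples. Que 2 was within the DMSO range and the other Que samples were above it. The fold change was 0.33 (SE 0.19), with a limma unadjusted p of 0.112 and an exact permutation p of 0.171. mRpL43, found only in mitochondria, varied little, with 16.3, 19.1, 20.3 and 17.1 RPKM in the Que samples, against 15.8, 16.4, 16.5 and 16.2 RPKM in the DMSO samples. Its fold change was 0.16 (SE 0.09), with a limma unadjusted p of 0.122 and an exact permutation p of 0.0857. Without Que 2 the limma unadjusted p of mRpL23 was 0.0133 at a fold change of 0.49, and with another sample left out it was at most 0.258. Without Que 1 that of mRpL43 was 0.0433 at a fold change of 0.21, and without Que 3 it was 0.232 at a fold change of 0.11.

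In the small subunit the smallest limma p values belonged to mRpS10, mRpS7, mRpS29, mRpS28 and mRpS18B, and none was below 0.05. mRpS10, a protein of the head of the small subunit, had 15.0, 12.7, 17.9 and 13.7 RPKM in the Que samples, against 13.7, 11.7, 13.1 and 12.1 RPKM in the DMSO samples. Que 2 was within the DMSO range and Que 4 was just above DMSO 1. The fold change was 0.22 (SE 0.12), with a limma unadjusted p of 0.102 and an exact permutation p of 0.114. Without Que 2 it was 0.29 with a limma unadjusted p of 0.0417, and without Que 3 it was 0.13 with a limma unadjusted p of 0.23.

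mRpS29, a GTP-binding protein known in mammals as death-associated protein DAP3, had 17.9, 17.1, 22.0 and 22.1 RPKM in the Que samples, against 17.0, 16.5, 19.3 and 17.9 RPKM in the DMSO samples. mRpS28 had 19.4, 12.2, 18.8 and 17.6 RPKM in the Que samples, against 15.5, 12.3, 16.7 and 13.4 RPKM in the DMSO samples. In both genes Que 3 and Que 4 were above every DMSO sample and Que 2 was not. The fold changes were 0.16 (SE 0.11) for mRpS29, 0.21 (SE 0.17) for mRpS28 and 0.18 (SE 0.12) for mRpS7, with exact permutation p values of 0.229, 0.257 and 0.229. Without Que 2 the fold change of mRpS28 was 0.37 with a limma unadjusted p of 0.0187, and without DMSO 2 it was 0.14 with a limma unadjusted p of 0.455.

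**Figure D3:**
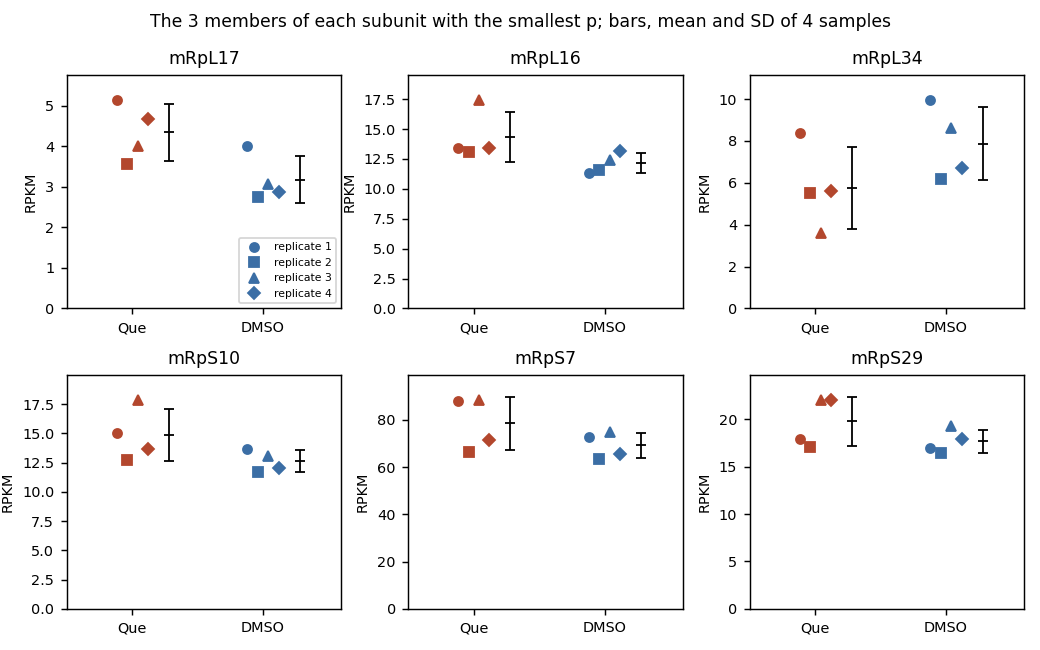
RPKM in each sample for the 3 genes of each subunit with the smallest limma p, Que on the left and DMSO on the right of each panel, with the replicate number as the marker shape and the mean and SD of 4 samples as the bar. The groups overlap in all 6 genes. Que 3 is the highest sample for mRpL16, mRpS10 and, closely followed by Que 1, mRpS7, and the lowest for mRpL34.

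Although no single change passed, most members had a slightly higher mean with Que. In 60 of 73 (82.2%) the mean log2 value was higher in Que than in DMSO samples, against 47% of all features tested. By subunit this held for 41 of 47 large subunit genes (87.2%) and 19 of 26 small subunit genes (73.1%). The median fold change was 0.09 over the members, 0.08 for the large and 0.11 for the small subunit, against -0.02 over all features tested. A median of 0.09 corresponds to a level 6.39% higher in Que samples. The genes share their samples, so these counts are a description and carry no test.

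Setting the subunits side by side showed no separation. The difference of the medians, large minus small, was -0.02 on the log2 scale, and it became 0.02 without Que 1. The ratio of the median level of the large to that of the small subunit was 0.998 to 1.06 in Que samples and 0.961 to 1.04 in DMSO samples. Some proteins carry a name that does not match their place in mammals, where the counterparts of mRpS30 and mRpS18A belong to the large subunit. With these counted as large, the medians were 0.08 for 49 large and 0.11 for 24 small subunit genes.

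The sample medians showed where this small difference lay. For each gene the log2 value in a sample was taken relative to the mean over the 8 samples, and the median over the 73 members was 0.11, -0.15, 0.24 and 0.01 in Que 1 to Que 4, against 0.05, -0.21, 0.03 and -0.05 in DMSO 1 to DMSO 4. Que 3 was highest and DMSO 2 and Que 2 were lowest, and the groups overlapped. Each Que sample was nevertheless above the DMSO sample of the same replicate number, which was not tested. The large subunit had 0.09, -0.15, 0.24 and 0.03 in the Que samples, against 0.06, -0.21, 0.02 and -0.05 in the DMSO samples. The small subunit had 0.18, -0.13, 0.26 and -0.02 in the Que samples, against 0.01, -0.20, 0.04 and -0.06 in the DMSO samples. Both subunits were highest in Que 3 and lowest in DMSO 2, followed by Que 2.

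Single members followed the same samples. Que 3 held the highest value of 37 of the 73 members, DMSO 2 the lowest of 36 and Que 2 the lowest of 14, and neither Que 2 nor DMSO 2 was highest for any. In Que 3, 60 members were above their own mean, and in Que 2 and DMSO 2 only 7 and 4 were. Without Que 3 the median fold change was 0.03 with 46 members higher, and without DMSO 2 it was 0.04 with 45 higher. Without Que 2 it was 0.15 with 67 higher, and without DMSO 1 it was 0.14 with 64 higher.

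**Figure D4:**
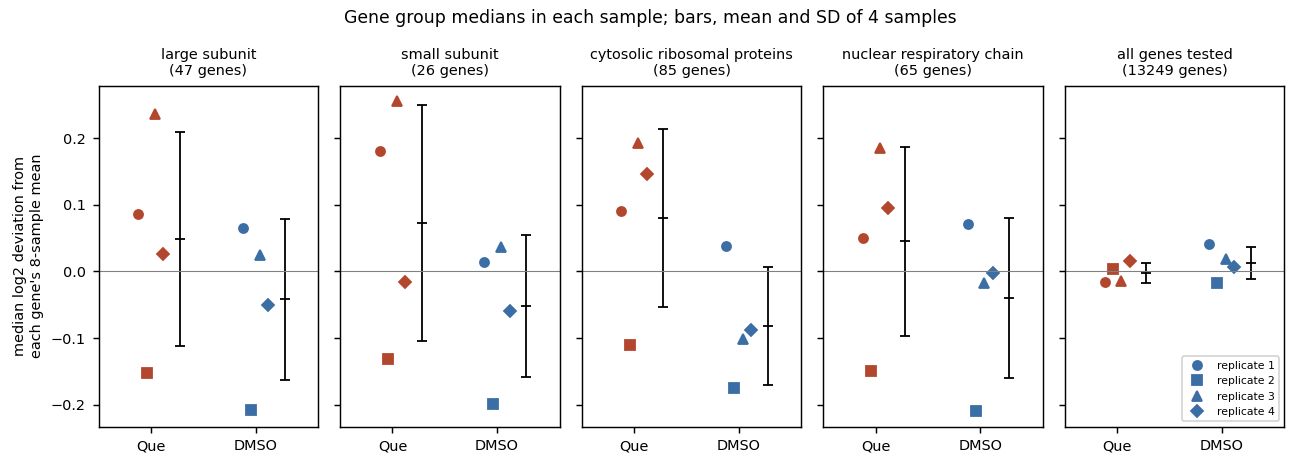
Median log2 deviation of each gene group in each sample, Que on the left and DMSO on the right of each panel, for the large and small subunit, 85 cytosolic ribosomal protein genes, 65 nuclear respiratory chain genes and all 13249 features tested, with the mean and SD of 4 samples as the bar. In the first 4 panels replicate 2 of both groups is the lowest of its group and Que 3 the highest sample, at 0.24 and 0.26 for the subunits.

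A property of the libraries moved with these sample medians. The rank correlation of a gene's deviation with its length, across all features tested, was -0.24, 0.34, -0.24 and -0.00 in Que 1 to Que 4, against -0.07, 0.34, -0.00 and 0.09 in DMSO 1 to DMSO 4. Genes are not independent replicates, and these values are descriptions. The samples where longer genes were relatively high, Que 2 and DMSO 2, were those where the short mitochondrial ribosomal protein genes were lowest. With the length trend of each sample removed, the member medians were 0.06, -0.04, 0.15 and -0.03 in the Que samples, against 0.01, -0.05, 0.00 and -0.04 in the DMSO samples. The median fold change was then 0.06, with 50 members higher, and 0.05 for the large and 0.08 for the small subunit.

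Other gene groups of short genes were also highest in Que 3 and lowest in DMSO 2, followed by Que 2. The cytosolic ribosomal protein genes were unlike the members in Que 4 and DMSO 3. The 85 cytosolic ribosomal protein genes that passed the minimum, which encode the ribosome outside mitochondria, had medians of 0.09, -0.11, 0.19 and 0.15 in the Que samples, against 0.04, -0.18, -0.10 and -0.09 in the DMSO samples. Their median fold change was 0.17, and 83 of 85 had a higher mean with Que. The 65 nuclear genes of the respiratory chain had medians of 0.05, -0.15, 0.19 and 0.10 in the Que samples, against 0.07, -0.21, -0.02 and -0.00 in the DMSO samples. Their median fold change was 0.09, and 53 of 65 were higher. The mitochondrial ribosomal protein genes, with a median of 0.09, thus lay close to the respiratory chain genes in these samples. The mean of the sample medians, Que minus DMSO, was 0.16 for the cytosolic ribosomal protein genes and 0.13 with the length trend removed. It went from 0.09 to 0.05 for the respiratory chain genes and from 0.10 to 0.05 for the members. These differences between gene groups, and the part of gene length in them, were not tested.

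The members were also split by ancestry, level, overlap and chromosome arm, as a description. The 45 genes with a bacterial counterpart, by the mammalian numbering of their names, had a median fold change of 0.11 with 36 higher, and the 28 genes found only in mitochondria had 0.09 with 24 higher. All 18 large subunit genes found only in mitochondria had a higher mean with Que, with fold changes of 0.01 to 0.26, and in the small subunit 6 of 10 did. Of the genes with a bacterial counterpart, 23 of 29 in the large and 13 of 16 in the small subunit did, against 47% of all features tested. The median fold change of the 18 genes was 0.08, the same as for the whole large subunit. The 14 genes of 40 RPKM or more had a median of 0.04 and the 59 lower ones 0.12. The 30 members that share no exon bases with another feature had a median of 0.09, and the 43 that do had 0.10. By chromosome arm the medians ran between 0.05 (2L) and 0.13 (2R).

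Members with a known role were followed as well. The stalk of the large subunit recruits the translation factors, and its proteins mRpL10, mRpL11 and mRpL12 had fold changes of 0.07 (SE 0.12), 0.17 (SE 0.17) and 0.17 (SE 0.18). mRpL12, which in bacteria forms the flexible copies of the stalk, had 19.7, 14.2, 23.9 and 17.6 RPKM in the Que samples, against 14.9, 13.7, 20.7 and 17.6 RPKM in the DMSO samples. The stalk proteins were measured at like levels of 17.8 to 19.2 RPKM.

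Around the peptidyl transferase centre, mRpL2, mRpL3 and mRpL4 had fold changes of -0.02 (SE 0.16), 0.18 (SE 0.12) and 0.01 (SE 0.14). mRpL3 had 17.7, 16.1, 22.8 and 18.4 RPKM in the Que samples, against 15.0, 15.9, 16.8 and 17.97 RPKM in the DMSO samples. mRpL2 had 19.4, 14.9, 23.2 and 22.0 RPKM in the Que samples, against 23.1, 17.2, 21.6 and 18.4 RPKM in the DMSO samples. The ranges overlapped in both genes. Of the proteins found in mitochondrial but not bacterial ribosomes, mRpL44, which has a ribonuclease III-like fold, had a fold change of 0.03 (SE 0.13) and mRpL45, which in mammals lines the tunnel exit, 0.08 (SE 0.11).

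In the small subunit, mRpS5, whose bacterial counterpart lies where the messenger RNA enters and affects decoding accuracy, had 69.7, 54.2, 50.3 and 52.0 RPKM in the Que samples, against 68.1, 54.4, 54.2 and 56.8 RPKM in the DMSO samples. Its fold change was -0.05 (SE 0.13). mRpS11, a protein of the platform, had 10.7, 9.71, 9.87 and 8.72 RPKM in the Que samples, against 10.9, 8.47, 7.81 and 7.96 RPKM in the DMSO samples. Its fold change was 0.16 (SE 0.13), and without DMSO 1 it was 0.26 with a limma unadjusted p of 0.0385, which was at most 0.474 with another sample left out. In mRpS30 the values were 11.9, 15.1, 15.2 and 17.0 RPKM in the Que samples, against 13.99, 15.7, 15.8 and 17.2 RPKM in the DMSO samples, with a fold change of -0.09 (SE 0.13).

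The fly has 3 genes related to bacterial S18, whose products in mammals sit at different places of the ribosome. mRpS18A had 27.3, 18.6, 21.1 and 20.4 RPKM in the Que samples, against 29.4, 18.8, 20.7 and 18.4 RPKM in the DMSO samples. mRpS18C, the counterpart of S18 proper, had 14.2, 11.5, 16.5 and 11.6 RPKM in the Que samples, against 13.3, 11.5, 11.5 and 11.2 RPKM in the DMSO samples. mRpS18B had 6.56, 4.40, 8.16 and 5.72 RPKM in the Que samples, against 3.78, 5.07, 6.46 and 5.06 RPKM in the DMSO samples. The 3 kept their order of level in all 8 samples, and the groups overlapped in each. Their fold changes were 0.01 (SE 0.17), 0.17 (SE 0.13) and 0.27 (SE 0.21).

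Some members varied much more between samples of a group than others. The SD within groups on the log2 scale was smallest in mRpL28 (0.08), mRpS31 (0.10) and mRpS9 (0.10). mRpL28 had 82.5, 72.5, 82.4 and 78.5 RPKM in the Que samples, against 80.2, 74.0, 73.4 and 79.3 RPKM in the DMSO samples. The SD was largest in mRpL37 (0.43), mRpL34 (0.41) and mRpL18 (0.39). These genes were named for their spread, after the values were seen.

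mRpL37 had 6.61, 10.7, 13.7 and 10.7 RPKM in the Que samples, against 6.47, 9.77, 10.2 and 13.3 RPKM in the DMSO samples. Replicate 1 was the lowest of both groups, at about the same level. mRpL18 had 13.8, 16.6, 32.3 and 19.96 RPKM in the Que samples, against 16.3, 15.6, 20.8 and 18.5 RPKM in the DMSO samples, and Que 3 alone was far above the rest.

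Genes that work with these proteins were read from lists of mitochondrial translation and RNA genes. These lists held 2 mitochondrial ribosomal proteins that do not carry the mRp name. One is tko (technical knockout), the counterpart of S12 at the decoding centre, which had 19.6, 15.3, 22.2 and 20.4 RPKM in the Que samples, against 18.4, 15.2, 17.6 and 17.9 RPKM in the DMSO samples. Its fold change was 0.16 (SE 0.13), and the limma unadjusted p was 0.259. Without Que 2 the fold change was 0.26 with a limma unadjusted p of 0.032, without Que 3 it was 0.086 and without DMSO 2 it was 0.094, with limma unadjusted p values of 0.515 and 0.513. The other is bonsai, the counterpart of S15, which had 8.14, 14.6, 24.3 and 18.2 RPKM in the Que samples, against 10.9, 15.2, 19.0 and 16.2 RPKM in the DMSO samples. Its fold change was 0.01 (SE 0.31), and replicate 1 was the lowest of both groups, as in mRpL37.

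The ribosomal RNAs of the mitochondrial genome are the partners of the members in the ribosome. The large one, lrRNA, averaged 1845 ± 496 RPKM in Que samples and 1316 ± 232 RPKM in DMSO samples (SD, n = 4 each), with a fold change of 0.46 (SE 0.21), a limma unadjusted p of 0.0586 and an exact permutation p of 0.0571. Without Que 2 or DMSO 3 the limma unadjusted p was 0.00737 or 0.0327, with voom on the computed reads it was 0.0385, and with the length trend removed it was 0.0466. The small one, srRNA, had 1.54, 1.25, 3.45 and 1.85 RPKM in the Que samples, against 0.981, 1.14, 1.601 and 0.70 RPKM in the DMSO samples. Its read numbers were low, at 34 to 74 in Que samples and 18 to 42 in DMSO samples. Its fold change was 0.77 (SE 0.33), with a limma unadjusted p of 0.0448, an adjusted p of 0.946 and an exact permutation p of 0.0857. Its limma unadjusted p stayed under 0.05 only without Que 2 or DMSO 3, and was at most 0.128 without another sample. Without Que 3 the fold change was 0.49. Among the processing choices, a constant of 1 gave a fold change of 0.49 with a limma unadjusted p of 0.0519, no filter gave 0.0544 and voom gave 0.0578. The libraries were made with a messenger RNA kit, and these levels do not give the amount of ribosomal RNA.

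Of 10 mitochondrial translation factors 4 had a higher mean with Que, and the median fold change was -0.05. The elongation factor gene mEFTu1 averaged 121 ± 10.8 RPKM in Que samples and 119 ± 8.34 RPKM in DMSO samples (SD, n = 4 each). Its much lower relative mEFTu2 had 4.27, 3.22, 4.55 and 5.07 RPKM in the Que samples, against 3.55, 2.97, 2.84 and 3.23 RPKM in the DMSO samples. The fold change of mEFTu2 was 0.42 (SE 0.16), with a limma unadjusted p of 0.0267, an adjusted p of 0.946 and an exact permutation p of 0.0857. Without Que 1, Que 3, Que 4, DMSO 2 or DMSO 3 the limma unadjusted p was over 0.05, at most 0.0798. It was the only one of the 10 with an unadjusted p under 0.05. Of 16 mitochondrial aminoacyl-tRNA synthetase genes, which charge transfer RNAs, 8 were higher and the median was -0.01. Of 12 genes of mitochondrial RNA synthesis and processing, 7 were higher and the median was 0.02, and none in either list had an unadjusted p under 0.05.

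The products of the mitochondrial ribosome are the 13 proteins encoded in mitochondrial DNA. Their messenger RNAs had a median fold change of 0.49, and 12 of 13 were higher with Que, against 47% of all features tested. The genes share their samples, so this count carries no test. The changes were uneven. COX1, the most abundant at a mean of 4220 RPKM, had 0.17 (SE 0.13), CYTB 0.22 (SE 0.11) and ND4 0.09 (SE 0.11). ND2, ND4L and ND6 had 0.65, 0.71 and 0.45 at low means of 3.13, 7.25 and 2.91 RPKM, and ND3 had -0.06. ATP8 and ND5 had 0.55 (SE 0.28) and 0.58 (SE 0.30). In ATP8, ND5, ND2 and ND4L, DMSO 1 was the lowest of all samples and DMSO 3 the highest, so no Que sample was above every DMSO sample. ATP8 had 123 RPKM in DMSO 1 and 369 RPKM in DMSO 3, against 289 to 347 RPKM in Que samples. ND5 had 85.9 RPKM in DMSO 1 and 284 RPKM in DMSO 3, against 232 to 277 RPKM in Que samples. The unadjusted limma p was under 0.05 in 4 of 13, all higher with Que (1.68% of all features tested): ATP6, COX2, COX3 and ND1. None passed adjustment, where each had an adjusted p of 0.946 in limma. COX3, a subunit of cytochrome c oxidase, averaged 2389.6 ± 260 RPKM in Que samples and 1929 ± 202 RPKM in DMSO samples (SD, n = 4 each), with a fold change of 0.31 (SE 0.13) and an exact permutation p of 0.0286. ND1, a subunit of complex I, had 424, 456, 776 and 550 RPKM in the Que samples, against 107, 262, 512 and 263 RPKM in the DMSO samples, with a fold change of 1.11 (SE 0.41). With a sample left out, the limma unadjusted p stayed under 0.05 in all 8 cases for ATP6, in 6 for ND1 (not without Que 3 or Que 4), in 4 for COX2 (not without Que 3, Que 4, DMSO 1 or DMSO 2) and in 3 for COX3 (those without Que 2, Que 4 or DMSO 4). The fold change of ND1 was 0.71 without DMSO 1 and 1.46 without DMSO 3. For COX3 the limma unadjusted p was 0.091 with no filter, 0.0793 with the length trend removed and 0.192 under quantile normalization, where the fold change was 0.19. The share of reads on the mitochondrial genome was 1.198% to 1.54% in Que samples and 1.02% to 1.33% in DMSO samples. The median of the ribosomal protein genes, 0.09, was smaller than that of the mitochondrial messages in the same fit, and the difference was not tested.

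**Figure D5:**
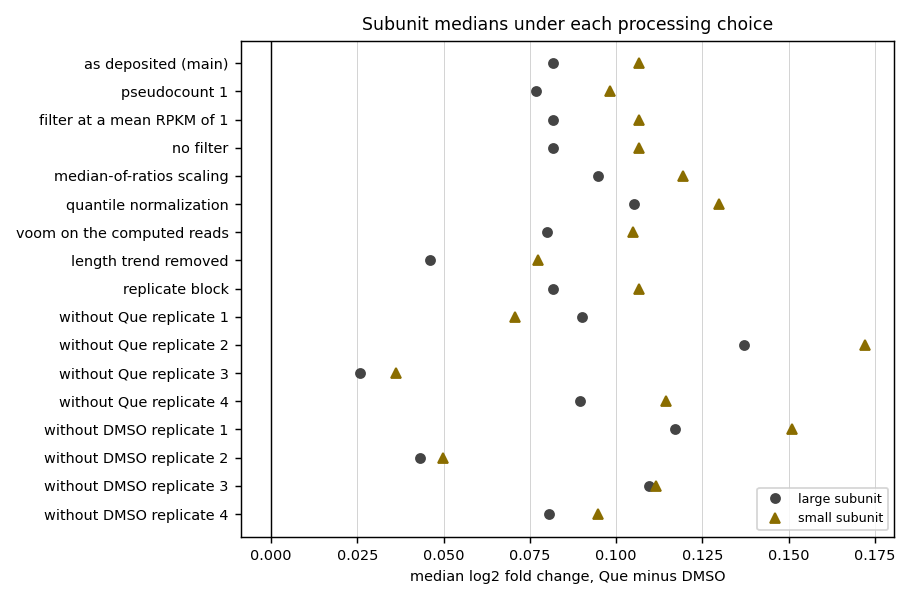
Median fold change of the large subunit (circles) and the small subunit (triangles) between Que and DMSO, on the log2 scale, under each processing choice and with each sample left out in turn. All medians are above 0. They are lowest without Que 3, at 0.03 and 0.04, and highest without Que 2, at 0.14 and 0.17.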

How the data were processed

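RNA was measured in whole midguts of old female flies, in 4 Que and 4 DMSO samples grouped by the sample labels. Per the study's methods and processing notes, the authors trimmed reads with Trimmomatic 0.36, merged duplicates, aligned them with STAR 2.5.3a to the ISO1 genome, counted them per gene with featureCounts and deposited RPKM. The annotation release and strand setting are not given in the sources used here. Every value came out as a whole number of reads when multiplied by gene length (100%, tolerance 0.01), which gave the 27253832 to 35619139 assigned reads per sample, and 0 columns were left unmapped. Their number limits the precision of low members, and this covers counting error only.

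The deposited RPKM plus 0.1 was put on a log2 scale, features with a mean below 0.1 RPKM were left out, and groups were compared with limma 3.58.1 in R 4.3.3, with an intensity trend, no block and Benjamini-Hochberg adjustment over 13249 features. The fit was tested on simulated data first. Exact permutation tests used the 70 arrangements of the samples. Python 3.11.15 was used for tables (pandas 2.3.3, NumPy 2.4.6), permutation tests (SciPy 1.17.1) and plots (matplotlib 3.10.9). Members and lists were chosen with earlier results of these data known. Members named in the text were the 5 of each subunit with the smallest p, those with an unadjusted p under 0.05 or without overlap of the groups, the 3 highest and 2 lowest of each subunit by level, and those with a fixed role. Of the other lists, genes with an unadjusted p under 0.05 were named, with tko, bonsai and the ribosomal RNAs. Alternatives were a pseudocount of 1, quantile normalization, median-of-ratios scaling, no filter or one at a mean of 1 RPKM, voom on the computed reads, subtraction of a loess curve against gene length fitted in each sample (span 0.5, 11931 genes over 300 bases), the replicate number as a block, each sample left out, and mRpS30 and mRpS18A counted as large.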

Additional observations from a re-analysis of the deposited data

Results flagged for a closer look

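In 3 named genes a sample stood far from the other 3 of its group, measured as its gap to the nearest sample over the range of the group, against the 95% limit of Dixon's test. Chance gives such a sample in about 1 of 20 groups, and 66 groups were looked at, for which 3.3 are expected. For mRpL16 in the Que group the value was 0.921, with 17.5 RPKM in Que 3 and 13.1 to 13.4 RPKM in the other Que samples. For mRpL4 in the Que group it was 0.949, with 19.9 RPKM in Que 1 and 15.0 to 15.2 RPKM in the others. For mRpS18C in the DMSO group it was 0.847, with 13.3 RPKM in DMSO 1 and 11.2 to 11.5 RPKM in the others.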

How the results depend on the processing

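No member passed an adjusted limma p of 0.05 under any of the 16 alternatives, and the medians of the members and of both subunits were above 0 in all of them. The member median was 0.06 to 0.11 across the processing choices and 0.03 to 0.15 with a sample left out. The number of members with a higher mean in Que was 50 to 64 and 45 to 67 in the same order. Of all features, 2 passed an adjusted p of 0.05 with no filter, and 0 to 3 did with a sample left out. Members with an unadjusted limma p under 0.05 were 2 with the length trend removed (mRpL17 and mRpL34), where 3.87% of all features passed, and 0 to 6 with a sample left out. The count was 0 without Que 4, DMSO 2 or DMSO 4, where 2.72%, 3.3% and 3.53% of all features passed, and 6 without Que 2, where 9.02% of all features passed. The fold change of mRpL17 was 0.35 to 0.55 with a sample left out. Low read numbers limit mRpL34, with 32 to 110 reads per sample, and overlapping genes limit the 8 members named for them. Of the 31 members named by rule, 12 changed sign under some alternative, never beyond 0.11 in size on the turned side. The values below also cover genes outside these 31, namely mRpL18, mRpL28, mRpL37, mRpS31, bonsai and mEFTu1. Of these, mRpL37 turned to -0.117 without DMSO 1 and bonsai to -0.21 without Que 3. With the length trend removed, mRpL30 was -0.034, mRpL4 -0.039, mRpL44 -0.0092, mRpS18A -0.00410, mRpL28 -1.23e-04 and bonsai -0.039. Under quantile normalization mRpL2 was 0.00208, mRpS31 0.00557 and mRpS2 0.00996. mRpS2 was also 0.00892 under median-of-ratios scaling and 0.00186 with voom. With a sample left out, the fold changes that turned ran from -0.0083 to 0.15 (mRpL10), -0.032 to 0.12 (mRpL14), -0.0898 to 0.32 (mRpL18), -0.105 to 0.11 (mRpL2), -0.0905 to 0.071 (mRpL30), -0.12 to 0.27 (mRpL37), -0.088 to 0.0998 (mRpL4), -0.039 to 0.12 (mRpL44) and -0.058 to 0.095 (mRpL55). In the small subunit they ran from -0.0997 to 0.16 (mRpS18A), -0.12 to 0.079 (mRpS2), -0.023 to 0.28 (mRpS21), -0.16 to 0.0093 (mRpS30), -0.075 to 0.024 (mRpS31) and -0.16 to 0.025 (mRpS5). The ranges were -0.21 to 0.31 for bonsai and -0.028 to 0.076 for mEFTu1. The cause of these turns was not tested.

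The replicate numbers were not taken to pair the samples, since no label ties a number to a shared batch. The deviations of same-numbered samples from their group means had correlations of 0.23, 0.12, 0.01 and 0.03 across all features tested. All of these were positive, so they cannot decide against a pairing, although Que 3 correlated best with DMSO 4 (0.15). Across the members alone the correlations of same-numbered samples were 0.70, 0.25, 0.30 and 0.25, and Que 3 again correlated best with DMSO 4 (0.34). With the replicate number as a block, 5 members had an unadjusted limma p under 0.05 (mRpS7, mRpL42, mRpL41, mRpL17 and mRpS10, all higher with Que), against 8.43% of all features tested, and none passed adjustment. Without the block that share of all features was 3.62%. With the block the limma unadjusted p of lrRNA was 0.0134 and that of COX3 was 0.0515. The member median of the log2 deviations was higher in the Que sample than in the DMSO sample of the same number in all 4 cases (0.11 and 0.05, -0.15 and -0.21, 0.24 and 0.03, and 0.01 and -0.05), which was not tested.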
